A study of Mus musculus with 4 samples.

Results

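The genes described here are interferon-stimulated genes, which cells switch on when they sense interferon or foreign nucleic acid. A fixed list of 39 of them was looked up by symbol in the deposited table of 50679 mouse genes, and 38 were kept because their mean over the 4 libraries reached 0.5 FPKM (sequenced fragments scaled for transcript length and library total). The antiviral GTPase gene Mx1 was the member left out. The libraries are 211F 1 and 211F 2, from mammary tumour cells with the PCNA allele labelled 211F, and WT 1 and WT 2, from cells with wild-type PCNA. In the deposited table the allele is written Y211F, which names a tyrosine replaced by a phenylalanine in PCNA, the sliding clamp of DNA replication. Cells of both genotypes carry PyMT, the polyoma virus middle T oncogene, came from tumours of mice aged 10 weeks, were captured with an antibody to EpCAM and then grown in culture with serum after plating (density 100000). The sources used here do not give the PyMT promoter, the strain or whether animals were pooled. The design text describes independent biological repeats, but names no animals. The p-values therefore measure only the spread between these libraries, and how far this is a spread between animals is not known.

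Interferons bind receptors whose kinases phosphorylate STAT proteins. STAT2 and IRF9 are subunits of ISGF3, a complex that binds a DNA element in the promoters of interferon-stimulated genes. The proteins made block viral RNA, protein synthesis and budding, and several of them, such as the RNA sensors, STAT2 and IRF9, feed back on the pathway. In tumour cells many of these genes are expressed without infection, at levels that differ between cell states.

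The libraries differ in cell state as well as in genotype, so a comparison of the genotypes also sets unlike cell states side by side. Summed over 14 epithelial markers, the level was 3313 and 3633 FPKM in 211F 1 and 211F 2, against 3243 and 7.60 FPKM in WT 1 and WT 2. Much of these sums is keratin, with Krt14 at 1297 and 1722 FPKM in 211F 1 and 211F 2, against 1058 and 2.41 FPKM in WT 1 and WT 2. The median of the 14 markers was 46.1 and 93.8 FPKM in 211F 1 and 211F 2, against 111 and 0.257 FPKM in WT 1 and WT 2. By the median, 211F 1 was thus below 211F 2 and WT 1. The 14 mesenchymal and fibroblast markers summed to 4503 and 48.4 FPKM in 211F 1 and 211F 2, against 348 and 4393 FPKM in WT 1 and WT 2. WT 2, labelled luminal epithelial, therefore had hardly any transcripts of these epithelial markers. Epcam, the antigen of the capture, was at 0.893 FPKM and Cdh1 at 0.533 FPKM there, against at least 77.3 and 102 FPKM in the other libraries. The other libraries did not share all of these markers. Krt19, also among the 14, was at 0.0834 and 0.0489 FPKM in 211F 1 and 211F 2, against 113 and 0.0692 FPKM in WT 1 and WT 2. Vim was at 1856 FPKM in 211F 1 and 1634 FPKM in WT 2, while the collagen gene Col1a1 was at most 2.70 FPKM outside WT 2, where it was at 437 FPKM. The 14 myeloid markers summed to 8.40 and 15.4 FPKM in 211F 1 and 211F 2, against 70.2 and 12.9 FPKM in WT 1 and WT 2, of which Cd14 made up 67.2 FPKM in WT 1. The 8 markers of plasmacytoid dendritic cells, which produce interferon, summed to 9.76 and 5.82 FPKM in 211F 1 and 211F 2, against 56.3 and 0.460 FPKM in WT 1 and WT 2, nearly all of it Ly6d where the sum was high. The pan-leukocyte antigen gene Ptprc was at most 0.0180 FPKM in every library, Siglech, a defining plasmacytoid gene, at most 0.106 FPKM, and the 12 lymphoid markers summed to at most 0.287 FPKM. The part of these cell states in the results below was not tested. In bulk RNA, fewer cells of a kind and less RNA per cell cannot be told apart.

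The element that ISGF3 binds was looked for in RefSeq promoter windows of GRCm38.p6, each running from 250 bases before to 50 bases after a start site. The search used GAAANNGAAA, or TTTCNNTTTC where the element lies on the other strand. Windows were found for 28 of the 38 kept genes, and 14 of these 28 (50%) held a match, against 3.99% of the 27025 genes with a window. Matches that lay wholly before the start site were found in 9 of the 28 genes, against 3.46% of all genes. These are matches of letters, and binding was not measured here. The stretches of 80 bases below, given on the strand of the gene with the matches in capitals, show the element in members whose levels are described next.
Ifit1: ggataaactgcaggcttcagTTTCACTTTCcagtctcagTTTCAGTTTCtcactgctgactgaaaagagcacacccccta
Ifit3: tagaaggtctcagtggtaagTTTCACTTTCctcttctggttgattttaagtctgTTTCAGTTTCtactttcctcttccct
Ifit3b: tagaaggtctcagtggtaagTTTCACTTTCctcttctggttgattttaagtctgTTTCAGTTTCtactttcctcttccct
Isg15: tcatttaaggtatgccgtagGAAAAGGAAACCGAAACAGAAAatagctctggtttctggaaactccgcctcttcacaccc
Rsad2: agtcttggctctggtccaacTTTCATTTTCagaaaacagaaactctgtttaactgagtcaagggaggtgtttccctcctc
Bst2: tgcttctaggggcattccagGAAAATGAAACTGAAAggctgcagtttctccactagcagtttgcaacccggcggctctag
Oas1a: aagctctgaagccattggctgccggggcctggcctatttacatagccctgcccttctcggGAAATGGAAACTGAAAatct

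The stretches lie at chr19:34640765-34640844 (Ifit1), chr19:34583353-34583432 (Ifit3) and chr19:34607749-34607828 (Ifit3b) on the plus strand, and at chr4:156200837-156200916 (Isg15), chr12:26456513-26456592 (Rsad2), chr8:71537543-71537622 (Bst2) and chr5:120907526-120907605 (Oas1a) on the minus strand. The Isg15 stretch holds 3 overlapping matches and those of Bst2 and Oas1a hold 2 overlapping matches each. In Ifit1 the 2 matches are separate. The Ifit3 and Ifit3b stretches are identical in 80 of 80 bases.

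**Figure D1:**
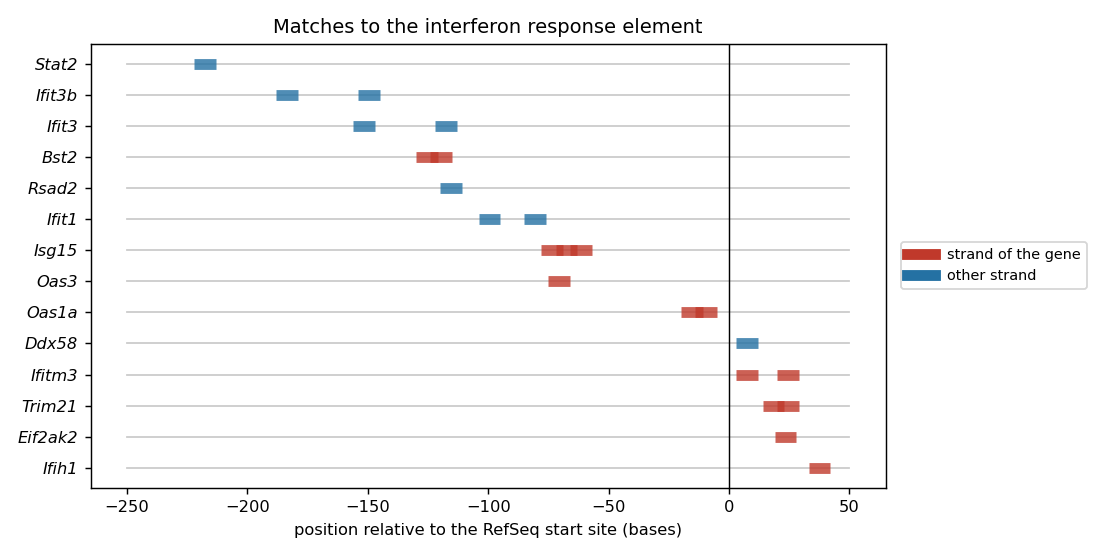
Position of each match to the interferon response element (x axis, bases from the RefSeq start site) in the 14 interferon-stimulated genes that hold one; colour gives the strand and the grey line the window searched. Matches of 9 genes lie before the start site, and those of Ddx58, Ifitm3, Trim21, Eif2ak2 and Ifih1 lie after it.

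No interferon-stimulated gene passed the test between 211F and WT cells. On the log2(FPKM + 1) scale, with 13997 genes of at least 0.5 FPKM tested with limma, 0 of 38 members were called higher and 0 lower at an adjusted p of 0.05, against 0% of all genes in each direction. The smallest adjusted p of any member was 0.9999. At an unadjusted p under 0.05 there was 1 member, Ifitm3, against 1.96% of all genes. Of the 38 members 24 had a positive difference (211F minus WT) and 14 a negative one, with a median of 0.12 against 0.02 for all tested genes. The difference was smaller than its own standard error in 29 of 38 members. An exact permutation test of 2 libraries against 2 cannot give a p below 0.33.

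The sign of the list's median turned when WT 1 or 211F 1 was left out. Without WT 1, 15 of 38 members had a positive difference and the median was -0.17, while 50.5% of all genes were positive. Without 211F 1, 19 of 38 were positive and the median was -0.01, while 52.7% of all genes were positive. Without 211F 2, 26 of 38 were positive and the median was 0.31, while 48.3% of all genes were positive. Without WT 2, the library with hardly any epithelial markers, 31 of 38 were positive and the median was 0.26, while 54.2% of all genes were positive.

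In 6 members both 211F libraries lay above both WT libraries, a share of 15.8% against 14.5% of all tested genes. In 3 members both 211F libraries lay below both WT libraries, a share of 7.89% against 12.2% of all genes. These shares are near or below those of all genes. The members higher in both 211F libraries were Samd9l, Rsad2, Cmpk2, Ifih1, Irf9 and Ddx58, and those lower in both were Ifitm3, Oas2 and Ifi27.

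**Figure D2:**
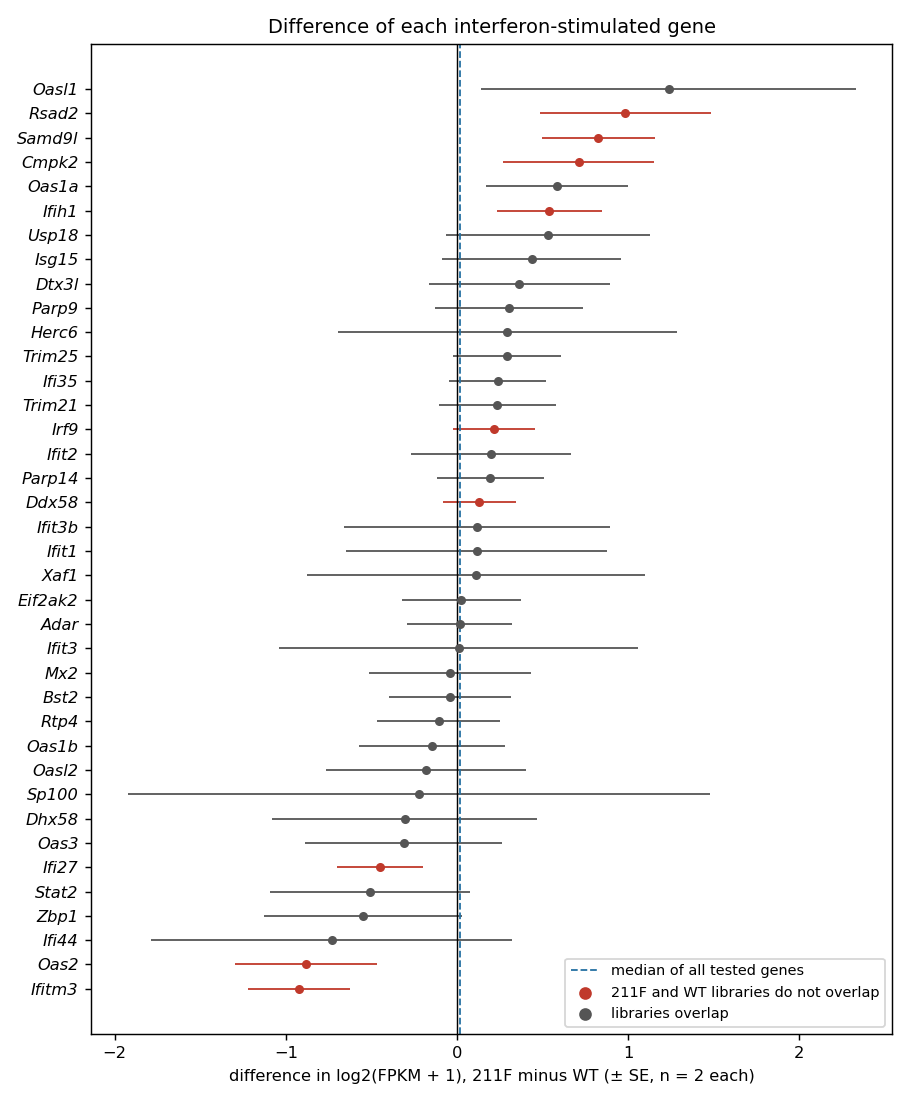
Difference of each kept gene in log2(FPKM + 1), 211F minus WT, with its limma standard error (n = 2 each); red marks the 9 genes whose 211F and WT libraries do not overlap and the dashed line the median of all tested genes. Differences run from -0.92 for Ifitm3 to 1.24 for Oasl1, and most error bars cross 0.

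Irf9 and Stat2 were expressed in every library. Irf9, which gives the complex its DNA contact, was at 28.9 and 24.8 FPKM in 211F 1 and 211F 2, against 23.7 and 22.1 FPKM in WT 1 and WT 2. The groups did not overlap, but the gap was small (0.22 ± 0.24, SE, limma adjusted p = 0.9999). Stat2 was at 13.1 and 11.4 FPKM in 211F 1 and 211F 2, against 10.3 and 30.3 FPKM in WT 1 and WT 2, so that WT 2 alone stood apart. The Stat2 difference was -0.51 ± 0.59 (SE, limma adjusted p = 0.9999), and it turned positive without WT 2. Exons of Irf9 share 123 bases with Rnf31 on the same strand.

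The listed IFIT genes, whose proteins bind viral RNA, lie close together on chromosome 19 of GRCm38, all on the plus strand. Ifit2 is at chr19:34550694-34576419, Ifit3 at chr19:34583531-34588731, Ifit3b at chr19:34607970-34613401 and Ifit1 at chr19:34640871-34650009. Ifit1 was at 17.9 and 10.9 FPKM in 211F 1 and 211F 2, against 6.16 and 25.8 FPKM in WT 1 and WT 2. Ifit3 was at 7.20 and 2.21 FPKM in 211F 1 and 211F 2, against 1.18 and 10.9 FPKM in WT 1 and WT 2. Ifit3b, the next listed gene, was at 4.16 and 1.39 FPKM in 211F 1 and 211F 2, against 0.858 and 4.66 FPKM in WT 1 and WT 2. In these 3 genes WT 2 was highest, 211F 1 next and WT 1 lowest, so the WT libraries enclosed both 211F libraries. The Ifit1 difference was 0.11 ± 0.76 (SE, limma adjusted p = 0.9999), and the ratio of mean FPKM, 211F over WT, was 0.901, so log values and means point in opposite directions. Ifit2 followed another order, with 10.9 and 15.7 FPKM in 211F 1 and 211F 2, against 7.86 and 16.1 FPKM in WT 1 and WT 2. Of the 50-base stretches in Ifit3 transcripts, 51.2% also occur in Ifit3b, so reads of these paralogs can be split between them and their separate levels are uncertain.

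The OAS genes make the enzymes that, on binding double-stranded RNA, produce the signal for RNase L, and the OASL genes are their relatives. They lie on chromosome 5, with Oasl2 and Oasl1 side by side at chr5:114896936-114912234 and chr5:114923240-114937915, and did not share a single order. Oas1a was at 10.7 and 16.1 FPKM in 211F 1 and 211F 2, against 10.7 and 6.56 FPKM in WT 1 and WT 2 (0.59 ± 0.41, SE, limma adjusted p = 0.9999). Oas1b, known as a flavivirus resistance gene in mice, was at 2.52 and 4.68 FPKM in 211F 1 and 211F 2, against 3.93 and 3.96 FPKM in WT 1 and WT 2 (-0.15 ± 0.43, SE). The groups overlapped in both genes, and 57.6% of the 50-base stretches of Oas1a also occur in Oas1g, so the level of Oas1a is uncertain. Oas2 was at 0.858 and 0.912 FPKM in 211F 1 and 211F 2, against 3.31 and 1.79 FPKM in WT 1 and WT 2 (-0.88 ± 0.42, SE, limma adjusted p = 0.9999). Both 211F libraries were thus below both WT libraries for Oas2. Oasl1, which restrains translation of Irf7 in mice, was at 3.09 and 29.1 FPKM in 211F 1 and 211F 2, against 2.74 and 4.94 FPKM in WT 1 and WT 2. Its high value rests on 211F 2 alone, and its difference, the largest of the list, was 1.24 ± 1.09 (SE, limma adjusted p = 0.9999). Oasl2 was at 34.5 and 17.4 FPKM in 211F 1 and 211F 2, against 18.2 and 42.7 FPKM in WT 1 and WT 2. Oas3 was highest in WT 2, at 7.65 FPKM, and lowest in 211F 1, at 2.67 FPKM.

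Among the sensors, Ddx58, the RNA helicase RIG-I, varied least of all members. It was at 50.2 and 51.6 FPKM in 211F 1 and 211F 2, against 50.1 and 43.1 FPKM in WT 1 and WT 2. The lower of the 211F values exceeds the higher WT value by a ratio of 1.003, and this separation ended when library sums were made equal. Ifih1, the long double-stranded RNA sensor MDA5, was at 11.7 and 14.5 FPKM in 211F 1 and 211F 2, against 8.61 and 8.72 FPKM in WT 1 and WT 2. Both 211F libraries lay above both WT libraries (0.54 ± 0.31, SE, limma adjusted p = 0.9999). Dhx58, the helicase LGP2, was at 7.57 and 2.87 FPKM in 211F 1 and 211F 2, against 3.08 and 11.4 FPKM in WT 1 and WT 2. Zbp1, which senses Z-form nucleic acid and can start necroptosis, was at 20.1 and 10.4 FPKM in 211F 1 and 211F 2, against 14.1 and 33.1 FPKM in WT 1 and WT 2. Dhx58 and Zbp1 were thus highest in WT 2 and next highest in 211F 1. The kinase gene Eif2ak2 (PKR) ranged between 27.9 and 44.4 FPKM, and the RNA editing enzyme gene Adar between 21.3 and 31.3 FPKM, with overlapping groups. Exons of Adar share 1365 bases with Chrnb2 on the other strand.

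Antiviral effectors held members at both ends of the list. Ifitm3, a membrane protein that blocks virus entry, was the most abundant (chr7:141009586-141010770, minus strand), at 191 and 123 FPKM in 211F 1 and 211F 2, against 296 and 286 FPKM in WT 1 and WT 2. Both 211F libraries were lower, with a difference of -0.92 ± 0.30 (SE) and a limma p of 0.0366 before and 0.9999 after adjustment over all genes. Of the 50-base stretches of Ifitm3, 10.0% also occur in other genes. The related gene Ifitm2, not a member, lies on chromosome 7 too. It was at 132 and 111 FPKM in 211F 1 and 211F 2, against 291 and 223 FPKM in WT 1 and WT 2 (-1.07 ± 0.25, SE, limma adjusted p = 0.9999).

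Rsad2 encodes viperin, which makes a chain-terminating nucleotide, and Cmpk2, a nucleotide kinase, lies beside it on chromosome 12 with 12751 bases between them. Rsad2 was at 3.18 and 3.23 FPKM in 211F 1 and 211F 2, against 0.507 and 2.01 FPKM in WT 1 and WT 2 (0.98 ± 0.50, SE, limma adjusted p = 0.9999). Cmpk2 was at 2.05 and 3.45 FPKM in 211F 1 and 211F 2, against 0.884 and 1.69 FPKM in WT 1 and WT 2 (0.71 ± 0.44, SE, limma adjusted p = 0.9999). Both neighbours were lowest in WT 1 and highest in 211F 2. Samd9l, an inhibitor of translation, was at 23.5 and 19.9 FPKM in 211F 1 and 211F 2, against 9.56 and 14.4 FPKM in WT 1 and WT 2 (0.83 ± 0.33, SE, limma adjusted p = 0.9999).

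The tetherin gene Bst2, whose product holds budding virus at the membrane, was at 118 and 75.5 FPKM in 211F 1 and 211F 2, against 79.5 and 118 FPKM in WT 1 and WT 2. Each genotype thus had a library near either level. Mx2 was at 4.58 and 2.09 FPKM in 211F 1 and 211F 2, against 2.86 and 3.72 FPKM in WT 1 and WT 2 (-0.04 ± 0.48, SE, limma adjusted p = 0.9999). Mx1, the gene below the minimum, was at 0.428 and 0.0995 FPKM in 211F 1 and 211F 2, against 0.208 and 0.222 FPKM in WT 1 and WT 2, and it was not tested.

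Isg15 encodes a ubiquitin-like protein that is attached to other proteins. It was at 89.3 and 52.2 FPKM in 211F 1 and 211F 2, against 33.5 and 75.1 FPKM in WT 1 and WT 2 (0.44 ± 0.52, SE, limma adjusted p = 0.9999). Usp18, which removes ISG15 and restrains the interferon receptor, was at 19.1 and 6.54 FPKM in 211F 1 and 211F 2, against 6.55 and 8.61 FPKM in WT 1 and WT 2 (0.53 ± 0.60, SE, limma adjusted p = 0.9999). The high Usp18 value was that of 211F 1, and without that library the difference turned negative. Herc6, the main ligase for ISG15 in mice, was at 21.4 and 9.62 FPKM in 211F 1 and 211F 2, against 4.35 and 28.6 FPKM in WT 1 and WT 2, and 12.0% of its 50-base stretches also occur in the overlapping gene Gm45193. Isg15, Usp18 and Herc6 all had their highest and second highest values in 211F 1 and WT 2. The ubiquitin ligase genes Trim25 and Trim21 had theirs in 211F 2 and WT 1, with Trim25 at 43.8 and 63.6 FPKM in 211F 1 and 211F 2, against 50.3 and 36.5 FPKM in WT 1 and WT 2.

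Dtx3l and Parp9 encode partners in a ubiquitin ligase complex, lie head to head on chromosome 16 and share 458 exonic bases on opposite strands. Dtx3l was at 18.6 and 15.0 FPKM in 211F 1 and 211F 2, against 20.4 and 7.90 FPKM in WT 1 and WT 2. Parp9 was at 37.0 and 28.6 FPKM in 211F 1 and 211F 2, against 37.2 and 18.2 FPKM in WT 1 and WT 2. Both were lowest in WT 2, where Ifit1, Stat2 and Zbp1 were highest. Parp14, a nearby gene of the same family as Parp9, was at 16.6 and 12.1 FPKM in 211F 1 and 211F 2, against 12.7 and 11.8 FPKM in WT 1 and WT 2.

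Of the remaining members, Sp100, a component of nuclear bodies, spread most of all 38 (chr1:85649988-85709998, plus strand). It was at 28.0 and 0.634 FPKM in 211F 1 and 211F 2, against 2.65 and 16.6 FPKM in WT 1 and WT 2, a ratio of 44.2 between its highest and lowest library. Xaf1, linked to cell death, was at 72.6 and 25.2 FPKM in 211F 1 and 211F 2, against 17.3 and 89.1 FPKM in WT 1 and WT 2. Ifi44 was at 14.3 and 3.21 FPKM in 211F 1 and 211F 2, against 5.27 and 27.3 FPKM in WT 1 and WT 2. In all 3 genes the spread inside each genotype exceeded the difference between genotypes. Ifi27 was lower in both 211F libraries, at 62.4 and 68.0 FPKM in 211F 1 and 211F 2, against 76.7 and 104 FPKM in WT 1 and WT 2 (-0.45 ± 0.25, SE, limma adjusted p = 0.9999). Ifi35 and the chaperone gene Rtp4 ranged between 23.7 and 35.5 FPKM and between 29.6 and 53.4 FPKM.

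**Figure D3:**
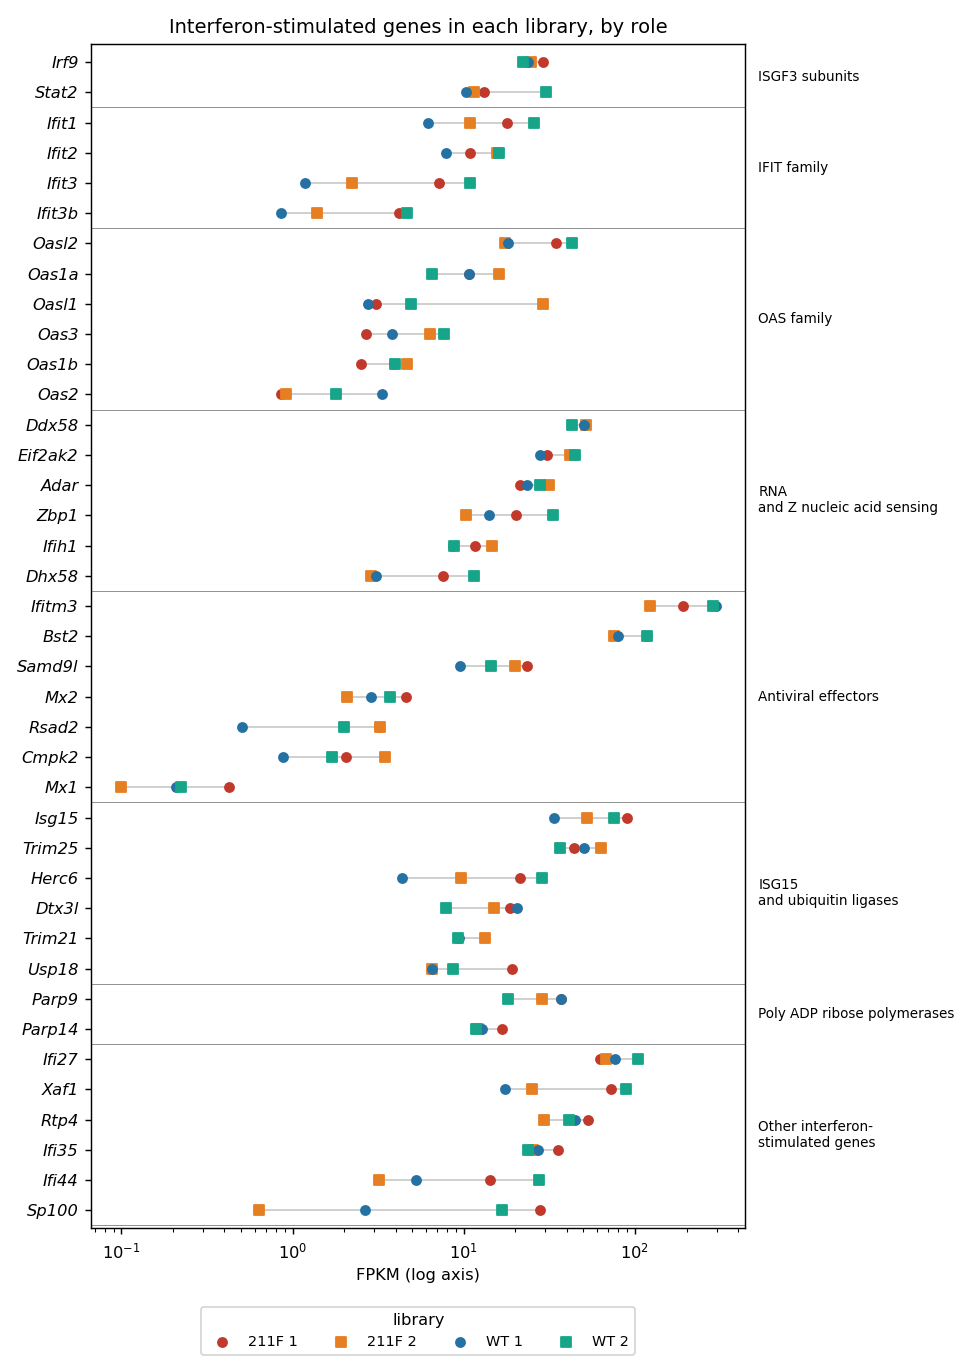
FPKM of all 39 listed genes in each library (log axis), grouped by role and ordered by mean within a role; red and orange are 211F 1 and 211F 2, blue and green WT 1 and WT 2, and grey lines join the lowest and highest library. Ddx58 and Irf9 hardly vary, while Sp100, Xaf1, Herc6 and Ifit3 have 211F 1 and WT 2 at the right and 211F 2 and WT 1 at the left.

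The levels of these genes differed between libraries. Across the 4 libraries 22 of 38 members (57.9%) spanned at least 1 log2 unit, against 40.5% of all tested genes, and 6 members (15.8%) spanned at least 2, against 16.5%. The median level of the 38 members was 18.9 and 14.8 FPKM in 211F 1 and 211F 2, against 9.91 and 17.4 FPKM in WT 1 and WT 2. Over all tested genes that median lay between 11.9 and 12.6 FPKM. WT 2 held the highest value of 15 members (39.5%), against 30.5% of all tested genes. WT 1 held the highest value of 4 members (10.53%), against 21.7% of all genes, and the lowest value of 14 members (36.8%), against 26.3% of all genes.

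In 15 of 38 members (39.5%) the highest and second highest values were those of 211F 1 and WT 2, against 24.1% of all tested genes. These were Stat2, Ifit1, Ifit3, Ifit3b, Oasl2, Dhx58, Zbp1, Mx2, Bst2, Isg15, Usp18, Herc6, Ifi44, Xaf1 and Sp100. In 3 members (7.89%) they were those of 211F 2 and WT 1, against 24.2% of all tested genes. The same split of libraries holds, by rank, for 12 of 13 tested mesenchymal and fibroblast markers. The 14 markers summed to 4503 FPKM in 211F 1 and 4393 FPKM in WT 2, with none at 0 in either and 1 at 0 in each of the other libraries. Vim and Fn1 were high in both, with Fn1 at 1851 FPKM in 211F 1 and 622 FPKM in WT 2. Others were high in WT 2 alone, such as Col1a2 at 0.286 FPKM in 211F 1 and 416 FPKM in WT 2. The part of these markers in the pattern was not tested. Promoter windows were found for 11 of the 15 members, and 6 of these held a match to the response element. Of the 6 members highest in both 211F libraries, which all had a window, 3 held one.

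**Figure D4:**
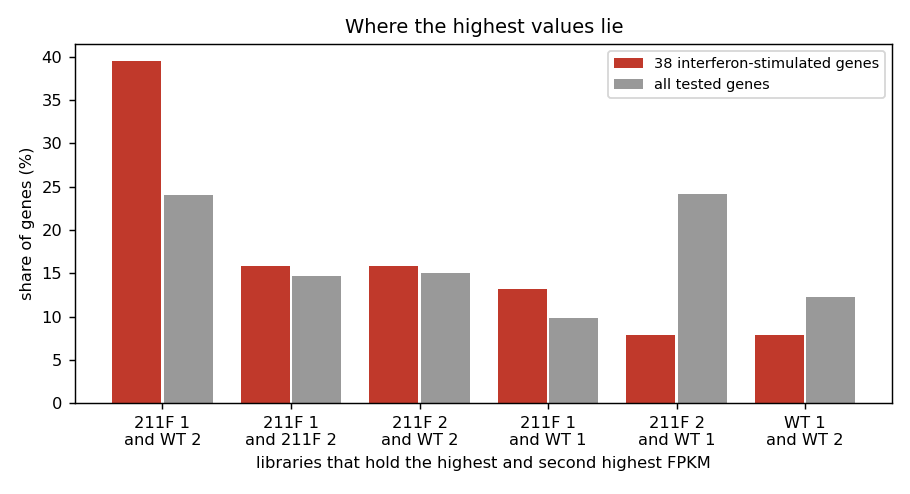
Share of genes (%) by the libraries that hold their highest and second highest FPKM, for the 38 interferon-stimulated genes (red) and all 13997 tested genes (grey). The bar for 211F 1 and WT 2 stands at 39.5% of members and 24.1% of all genes, and that for 211F 2 and WT 1 at 7.89% and 24.2%.

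Pairs of libraries of the same genotype also differed. Comparing 211F 1 with 211F 2, 23 of 38 members were higher in 211F 1, against 46.9% of all tested genes. By at least 1 log2 unit 8 members were higher and 2 lower in 211F 1, together 26.3%, against 18.7% of all genes. Comparing WT 1 with WT 2, 12 of 38 were higher and 26 lower in WT 1, while 46.8% of all genes were higher there. By at least 1 log2 unit 1 member was higher and 12 lower in WT 1, together 34.2%, against 24.4% of all genes. Comparing 211F 2 with WT 1, the libraries with the lower mesenchymal marker sums, 22 of 38 were higher in 211F 2, against 53.9% of all genes, with 3 higher and 3 lower by at least 1 log2 unit, together 15.8%, against 10.45% of all genes.

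Transcripts of the interferons themselves were near 0. Of 21 ligand genes, 18 were listed at 0 in all 4 libraries, and none reached 1 FPKM. Ifnb1, the interferon beta gene, was at 0.189 FPKM in 211F 1 and listed at 0 in 211F 2, against 0.0497 FPKM in WT 1 and a listed 0 in WT 2. A count of 3 fragments in 1 kb of transcript correspond to between 0.0495 FPKM in WT 2 and 0.0912 FPKM in 211F 2, so these levels rest on few fragments.

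The receptor genes were expressed in all libraries, and 0 of 9 receptor and kinase genes passed the test. Ifnar1, a chain of the type I interferon receptor, was at 25.1 and 28.4 FPKM in 211F 1 and 211F 2, against 27.4 and 29.6 FPKM in WT 1 and WT 2. Its partner chain Ifnar2 was at 24.6 and 29.1 FPKM in 211F 1 and 211F 2, against 32.3 and 60.1 FPKM in WT 1 and WT 2 (-0.70 ± 0.38, SE, limma adjusted p = 0.9999). Ifngr2, a chain of the interferon gamma receptor, was at 28.5 and 36.2 FPKM in 211F 1 and 211F 2, against 53.9 and 37.9 FPKM in WT 1 and WT 2. Ifnar1 hardly varied, and Ifnar2 was highest in WT 2. The interferon lambda receptor gene Ifnlr1 was at 0.628 and 6.84 FPKM in 211F 1 and 211F 2, against 6.88 and 0.0157 FPKM in WT 1 and WT 2. It was thus high in the libraries where most of the 15 members named above were low.

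Of 7 transcription factors tested 0 passed. Irf7, the factor that amplifies interferon production, was at 12.1 and 19.6 FPKM in 211F 1 and 211F 2, against 23.998 and 31.3 FPKM in WT 1 and WT 2 (-0.79 ± 0.36, SE, limma adjusted p = 0.9999). Irf1, a factor shared with the interferon gamma response, was at 108.7 and 48.6 FPKM in 211F 1 and 211F 2, against 71.3 and 113 FPKM in WT 1 and WT 2. Both 211F libraries lay below both WT libraries for Irf7, while the groups overlapped for Irf1. Irf7 lies on chromosome 7, as do Ifitm3 and Ifitm2. Of 11 regulators of the pathway 0 passed, among them Socs1, which inhibits the receptor kinases, at 1.46 and 0.523 FPKM in 211F 1 and 211F 2, against 1.71 and 2.62 FPKM in WT 1 and WT 2. Of 40 further interferon-stimulated genes 0 passed, with 14 positive and 26 negative differences and a median of -0.13. Among all tested genes 51.9% were positive, with a median of 0.02. In 6 of the 40 both 211F libraries lay above both WT libraries, among them Parp12 and Tlr3, and in 6 below. These shares were 15% each, against 14.5% and 12.2% of all tested genes. The median of all 47 genes of this list, tested or not, was 12.1 and 11.2 FPKM in 211F 1 and 211F 2. It was 10.1 and 16.1 FPKM in WT 1 and WT 2, and so highest in WT 2. Trim14, the second of the 40 by p after Ifitm2, was at 1.49 and 0.806 FPKM in 211F 1 and 211F 2, against 3.48 and 3.88 FPKM in WT 1 and WT 2.

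The same split between libraries was frequent in interferon-stimulated genes outside the list too. Of the 40 further interferon-stimulated genes, 18 (45%) had their highest and second highest values in 211F 1 and WT 2, against 24.1% of all tested genes. It was also frequent in GTPase families linked to interferon gamma and in the p200 family. Of 15 guanylate-binding and immunity-related GTPase genes, 12 had their highest and second highest values in 211F 1 and WT 2, against 24.1% of all tested genes, and 0 passed the test between genotypes. Tgtp2 was at 49.8 and 0.194 FPKM in 211F 1 and 211F 2, against 0.137 and 20.5 FPKM in WT 1 and WT 2. Irgm1, which acts in autophagy of intracellular pathogens, was at 119.7 and 14.5 FPKM in 211F 1 and 211F 2, against 13.9 and 51.6 FPKM in WT 1 and WT 2. Gbp5 stood apart in WT 2 only, at 0.122 and 0.0803 FPKM in 211F 1 and 211F 2, against 0.0932 and 8.49 FPKM in WT 1 and WT 2. Of 8 genes of the p200 family of DNA-binding proteins, 8 had a negative difference, 0 passed, and 5 had their highest values in 211F 1 and WT 2. Of all 13997 tested genes, 6729 had a negative difference. The p200 genes all lie on chromosome 1, and WT 2 held the highest value of each except Ifi211, so their shared sign leans on 1 library. Ifi203 was at 5.25 and 6.19 FPKM in 211F 1 and 211F 2, against 7.43 and 22.0 FPKM in WT 1 and WT 2. Aim2, the sensor of an inflammasome, was at 0.471 FPKM in 211F 1 and listed at 0 in 211F 2, against 0.482 and 10.6 FPKM in WT 1 and WT 2. Tgtp2 and many members of both families have close paralogs, so their separate levels are uncertain.

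**Figure D5:**
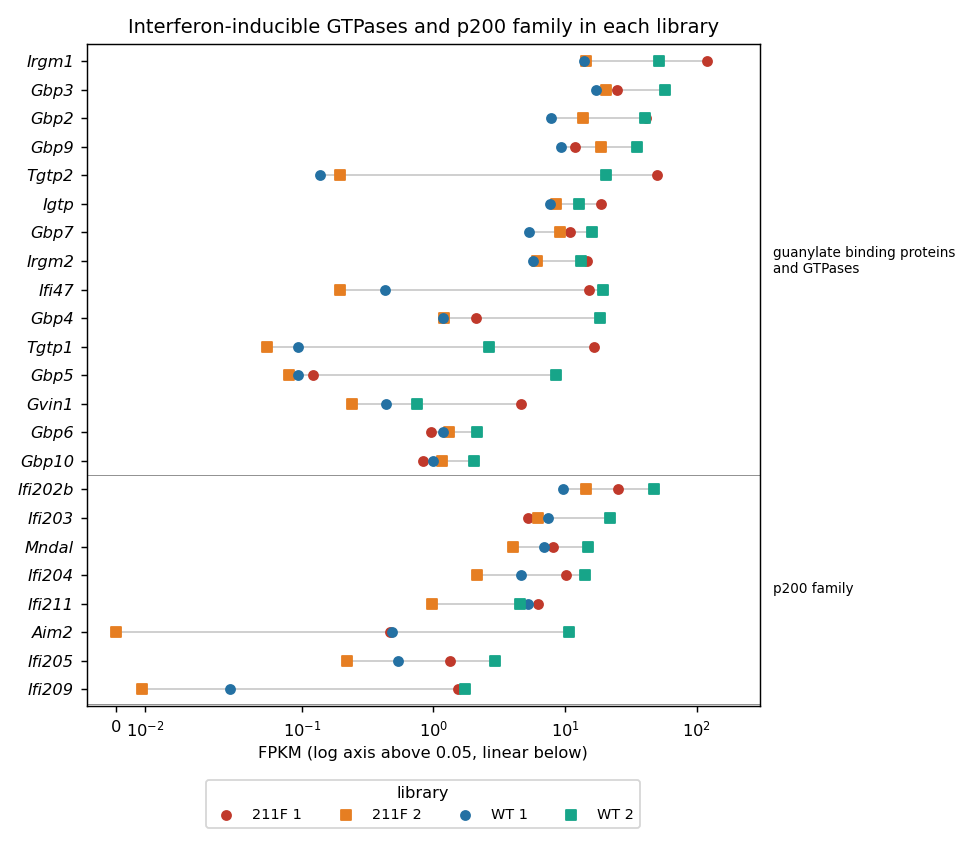
FPKM of the 15 interferon-inducible GTPase genes and 8 p200 family genes that were tested, in each library (log axis above 0.05 FPKM, linear below). For Tgtp2 and Irgm1 211F 1 and WT 2 lie to the right of 211F 2 and WT 1, and Gbp5 and Aim2 are high in WT 2 alone.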

How the data were processed

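RNA from 4 libraries of PyMT mammary tumour cells, 2 labelled PCNA 211F and 2 labelled PCNA WT, was sequenced after a strand-specific library preparation, per the labels' protocols. The authors deposited FPKM values in a table with 1 column per library. Per the submitters' processing notes, TopHat2 2.0.13, DESeq2 and GRCm38 were used, in roles that are not described. The sources used here do not name the program that computed FPKM, its annotation or whether it used strand. Since each value is scaled by its library total, very abundant genes lower all others.

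Symbols were matched by Ensembl identifier for 50369 of 50679 genes, with positions from GENCODE M21 (GRCm38). The 13997 genes whose mean reached 0.5 FPKM were tested as log2(FPKM + 1) with limma 3.58.1 in R 4.3.3, with an intensity trend, two-sided, and Benjamini-Hochberg adjustment over all tested genes at 0.05. The script was tested on simulated data. There, calls of changed genes were required only with the spread much reduced, so this says nothing of power at the real spread. Differences are 211F minus WT and understate changes of low genes.

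The table holds no counts. In 1971 genes with a single transcript of at least 3000 bases, low values fell on whole fragments within 0.1 for 93.2% to 95.2% of values. This share rests on 397 to 433 values per library. The worth of 1 fragment was chosen in each library to make the share high, so it is not an independent check. If the values were not rescaled, 211F 1, 211F 2 and WT 2 were sequenced 1.10, 0.934 and 1.72 times as deeply as WT 1. Among members with 1 annotated transcript, the thinnest values were about 60.4 fragments for Ifit3b and 72.2 for Ifit3, both in WT 1, against 892 for Isg15 there.

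The members and gene lists were chosen with earlier results of these data known. Values were given by library for 10 fixed members, for members whose groups did not overlap, for the 8 members of widest range, and for the highest and lowest of each role; some others were added after their values were seen. Promoter sequences are RefSeq's on GRCm38.p6; the ends of the windows were found in GENCODE transcripts of the same strand for 25 of 28 members. Tgtp2, Irgm1 and Ifnlr1 were chosen after their values were seen. A gene that the rule names is not reported here. Alternatives were other pseudocounts, filters, scalings and variance models, the replicate block and leaving out each library.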

Additional observations from a re-analysis of the deposited data

How the results depend on the processing

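In 13 alternatives limma called 0 members and 0 genes at an adjusted p under 0.05, of which crossed replicate numbers were chosen after seeing the data. The differences of 16 named members kept their sign in 199 of 208 values, but many of these values could not turn. Changing the filter, the variance model or the replicate block leaves each difference exactly as it was. In addition, 9 members were named for groups that do not overlap, which fixes their sign when a library is left out. Mx2 turned to 0.053 with quantile normalization. Leaving out each library gave ranges of -0.47 to 0.39 for Mx2, -0.13 to 1.007 for Isg15, -0.84 to 1.07 for Ifit1, -1.24 to 0.23 for Stat2, -0.18 to 1.24 for Usp18 and -0.49 to 0.20 for Oas1b. The sign turned without WT 1 for Isg15 and Ifit1, without WT 2 for Stat2 and Mx2, without 211F 1 for Ifit1, Usp18 and Oas1b, and without 211F 2 for Mx2, and the lone library of a group was then assumed to vary like the others. It also gave 12 to 16 of 38 members with groups apart and higher in 211F, against 29.0% to 34.9% of all genes, 5 to 17 lower, against 27.8% to 35.5% of all genes, and a median difference of the members of -0.17 to 0.31; the counts grow because fewer libraries need to be apart. With library sums made equal, which raises all values, the median level of the members on the log2 scale was 5.10 in 211F 1, 4.80 in 211F 2, 4.26 in WT 1 and 5.03 in WT 2, in place of 4.31, 3.98, 3.45 and 4.203. The response element was found before the start site in 9 members in place of 14 in the whole window. The 275 genes with an unadjusted p under 0.05 became 745 with no filter, where more genes were tested, and between 264 and 959 without a library. The labels do not say that replicate numbers pair libraries; across genes, the deviations of libraries sharing a number correlated at r = -0.457. With the replicate block 147 genes and 0 members had an unadjusted p under 0.05, and with the numbers crossed 569 genes and 2 members did.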
